A study of Homo sapiens with 4 samples.

Results

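The regions described here are the ATAC-seq peaks at 45 cell cycle genes in LM2 breast cancer cells with and without CECR2. A peak was taken where it lay inside a member gene or within 10 kb of either end of it, as the GRCh38.p14 gene table of RefSeq lists the gene. This gave 367 of the 190348 peaks of the count table, 280 at 30 genes that act in G1 or at entry into S phase (G1/S genes) and 87 at 15 genes that act in G2 or mitosis (G2/M genes). No peak lay in the window of more than 1 member. In ATAC-seq the transposase Tn5 inserts adapters into open DNA, so a count stands for a cut in accessible chromatin. LM2 is a human line derived from the MDA-MB-231 breast cancer line for a raised ability to form lung metastases, and the cells were kept under puromycin. The knockout cells carried a CECR2 deletion made with 1 guide, sg1, and the control cells a non-targeting guide. CECR2 is a bromodomain protein that works with ISWI chromatin remodellers. Each group had 2 libraries of 50000 cells. Both groups are the same parental line, and 1 guide stands for the deletion. Whether the 2 replicates of a group came from separate cultures is not stated, so the p-values reflect the spread between libraries that may be technical repeats.

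Progress through G1 depends on D-type cyclins with CDK4 and CDK6, which phosphorylate RB family proteins and so free the E2F factors. E2F factors switch on genes of DNA replication, among them the MCM helicase and the enzymes that make nucleotides. Later in the cycle, MYBL2 and FOXM1 act with the MuvB complex on genes of mitosis, many of which carry a cell cycle homology region (CHR) next to CCAAT boxes bound by NF-Y. Accessibility of a promoter is not a measure of its transcription, and no sorting of the cells by phase is described.

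The promoter sequences show where the G1/S and G2/M genes differ before any comparison of libraries. RefSeq promoters of GRCh38.p14, 250 bases before and 50 after the listed start, were held for 36 of the 45 members. They were searched on both strands. The E2F matches sought were TTTGGCGC, TTTCCCGC, TTTGCCGC and TTTCGCGC. The CHR matches were TTTGAA and, as the alternative form, TTCGAA. The NF-Y box was CCAAT alone. For AP-1 the letters were TGACTCA, whose other strand reads as the alternative form of that site. An E2F match was present in 13 of 23 G1/S promoters (56.5%), in 1 of 13 G2/M promoters (7.69%, that of CDK1) and in 4.44% of the 15842 promoters of the table. A CHR match was present in 8 of 13 G2/M promoters (61.5%), in 2 of 23 G1/S promoters (8.70%) and in 13.5% of the table. CCAAT was found in 76.9% of the G2/M promoters, in 47.8% of the G1/S promoters and in 36.4% of the table. No member promoter held an AP-1 match, which 3.66% of the table held. A match is a description of letters and not a measured binding site.

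The 6 promoters below are shown because their peaks passed the test and they carry these matches. The 3 G1/S promoters are E2F1 (chr20:33686336-33686635, minus strand), MCM3 (chr6:52284693-52284992, minus strand) and MCM7 (chr7:100101348-100101647, minus strand). The 3 G2/M promoters are CDK1 (chr10:60778081-60778380, plus strand), PLK1 (chr16:23678639-23678938, plus strand) and TOP2A (chr17:40417847-40418146, minus strand). Each is written 5′ to 3′ on the strand of its gene, with E2F, CHR and CCAAT matches of either strand in capitals. In MCM7 an E2F match and a CCAAT overlap and form 1 run of capitals.
E2F1: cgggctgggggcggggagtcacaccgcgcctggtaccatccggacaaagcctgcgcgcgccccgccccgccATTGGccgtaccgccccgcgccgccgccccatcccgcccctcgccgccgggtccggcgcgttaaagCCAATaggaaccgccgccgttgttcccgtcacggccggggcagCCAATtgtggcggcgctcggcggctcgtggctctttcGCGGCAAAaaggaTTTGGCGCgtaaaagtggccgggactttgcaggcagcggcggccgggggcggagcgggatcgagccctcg
MCM3: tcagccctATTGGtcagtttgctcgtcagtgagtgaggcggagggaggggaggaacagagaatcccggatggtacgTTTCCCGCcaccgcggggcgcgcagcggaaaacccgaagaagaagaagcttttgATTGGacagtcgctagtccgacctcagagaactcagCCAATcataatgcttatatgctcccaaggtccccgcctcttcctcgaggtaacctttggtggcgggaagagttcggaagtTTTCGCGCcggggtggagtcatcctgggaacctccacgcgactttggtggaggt
MCM7: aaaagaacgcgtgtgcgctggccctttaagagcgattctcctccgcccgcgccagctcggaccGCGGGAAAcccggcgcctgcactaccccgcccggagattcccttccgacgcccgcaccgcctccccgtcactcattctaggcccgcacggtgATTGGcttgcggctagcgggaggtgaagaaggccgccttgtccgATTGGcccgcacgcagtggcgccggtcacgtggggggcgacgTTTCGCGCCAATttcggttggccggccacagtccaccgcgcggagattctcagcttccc
CDK1: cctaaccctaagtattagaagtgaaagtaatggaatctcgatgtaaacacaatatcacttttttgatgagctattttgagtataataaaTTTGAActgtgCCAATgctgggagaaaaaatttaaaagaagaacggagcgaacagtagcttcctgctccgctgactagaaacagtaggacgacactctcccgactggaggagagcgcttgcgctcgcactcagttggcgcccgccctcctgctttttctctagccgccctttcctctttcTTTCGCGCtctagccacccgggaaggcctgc
PLK1: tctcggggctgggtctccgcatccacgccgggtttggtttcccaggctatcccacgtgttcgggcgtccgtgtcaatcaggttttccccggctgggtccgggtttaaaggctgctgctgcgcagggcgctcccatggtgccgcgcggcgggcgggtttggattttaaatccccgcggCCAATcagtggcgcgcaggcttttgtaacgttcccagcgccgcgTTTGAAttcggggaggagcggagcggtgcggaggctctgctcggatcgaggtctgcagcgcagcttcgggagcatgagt
TOP2A: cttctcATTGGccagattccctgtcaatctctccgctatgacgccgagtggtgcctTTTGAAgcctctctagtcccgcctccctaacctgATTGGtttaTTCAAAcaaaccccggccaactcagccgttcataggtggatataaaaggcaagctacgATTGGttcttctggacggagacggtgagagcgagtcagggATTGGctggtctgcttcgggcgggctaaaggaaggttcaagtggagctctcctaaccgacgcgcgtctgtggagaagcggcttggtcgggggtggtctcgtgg

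**Figure D1:**
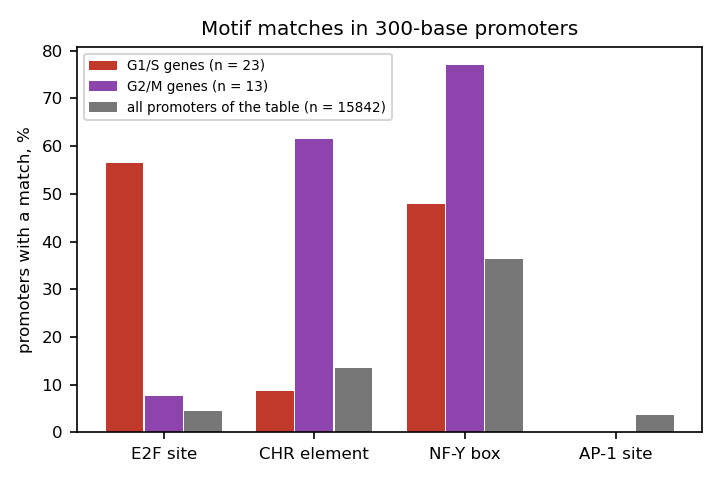
Bars give the percent of 300-base promoters that hold at least 1 match, for G1/S members (n = 23), G2/M members (n = 13) and all promoters of the table (n = 15842). The box bound by NF-Y is CCAAT. The E2F bar is tallest for the G1/S genes at 56.5% and the CHR bar for the G2/M genes at 61.5%.

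The sg1 libraries were deeper than the controls. They held 58341297 and 52150389 counts, against 25610655 and 18950793 counts in the control libraries. Peaks in the first 250 kb of chromosome 1 took 25.4% of the counts in both sg1 libraries, against 18.0% and 17.9% in the control libraries, and were left out. The defining markers of a mesenchymal breast line (VIM, CD44, AXL and MSN) all had a promoter peak, while no peak lay within 1 kb of an end of ESR1, PTPRC or ITGAM. The luminal markers GATA3, KRT8 and EPCAM and the T cell gene CD3E did have one. Some of these markers differed between the groups: MSN was lower, with 3.41 and 2.99 CPM in sg1 and 6.56 and 5.48 CPM in control (log2 fold change -0.92, edgeR adjusted p = 0.000453), GATA3 higher (log2 fold change 0.76) and CD3E lower (log2 fold change -0.26). Their part in the results at cell cycle genes was not tested. The tallest peak at CECR2 itself had 412 and 445 counts in the sg1 libraries, against 178 and 106 counts in the control libraries (log2 fold change 0.39), which does not show whether the gene was edited. All levels below are CPM, counts scaled to the depth of the library, after TMM scaling, and log2 fold changes are sg1 over control. Where the groups are said below to lie apart, the peak had been named because it passed the test. That separation is largely set by the choice and adds no support.

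Cell cycle loci changed in both directions in equal number. Of the 356 member peaks with enough counts to test, 54 (15.2%) were lower and 54 (15.2%) higher in the sg1 libraries by edgeR's quasi-likelihood test at an adjusted p under 0.05. Among the 119452 tested peaks placed by the same rule at any protein-coding gene, 15.5% were lower and 12.2% higher, and among all 184717 tested peaks 16.8% and 11.5%. The members' shares are therefore close to the background. Their median log2 fold change was 0.12, against 0.04 for peaks at protein-coding genes. More than 2-fold differences among the called member peaks were 27 lower and 7 higher. The balance depends on the scaling: under upper-quartile scaling 46 member peaks were lower and 81 higher, and over all called peaks the higher ones made up 51.3% in place of 40.7%. Leaving out sg1 replicate 1 gave 36 lower and 31 higher member peaks, and leaving out sg1 replicate 2 gave 34 lower and 31 higher. With DESeq2 38 were lower and 27 higher. The 11 untested peaks had at most 22 counts in any library.

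By gene, 13 members had lower peaks and no higher one, 14 had higher peaks and no lower one, 10 had both, and 8 had no called peak. The same count was not made over all protein-coding genes, so these numbers cannot be set against a background. The 8 without a call were CCND2, CCNE2, E2F8, MCM4, MCM6, CCNA2, CCNB1 and CCNB2. In the G1/S genes, whose median was 0.10, 45 of 273 tested peaks (16.5%) were lower and 40 (14.7%) higher. In the G2/M genes, whose median was 0.19, 9 of 83 (10.8%) were lower and 14 (16.9%) higher. Without sg1 replicate 2 the G1/S counts were 27 lower and 24 higher and the G2/M counts 7 lower and 7 higher. Leaving out sg1 replicate 1 gave 30 lower and 24 higher G1/S peaks and 6 lower and 7 higher G2/M peaks, and without control replicate 2 the G2/M genes had 9 higher. The window of a single gene, RRM2, held 11 of the 45 lower G1/S peaks. Leaving it out, an alternative chosen after seeing the data, gave 34 lower (13.4%) and 40 higher of 254. The difference between the G1/S and G2/M genes was not tested.

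**Figure D2:**
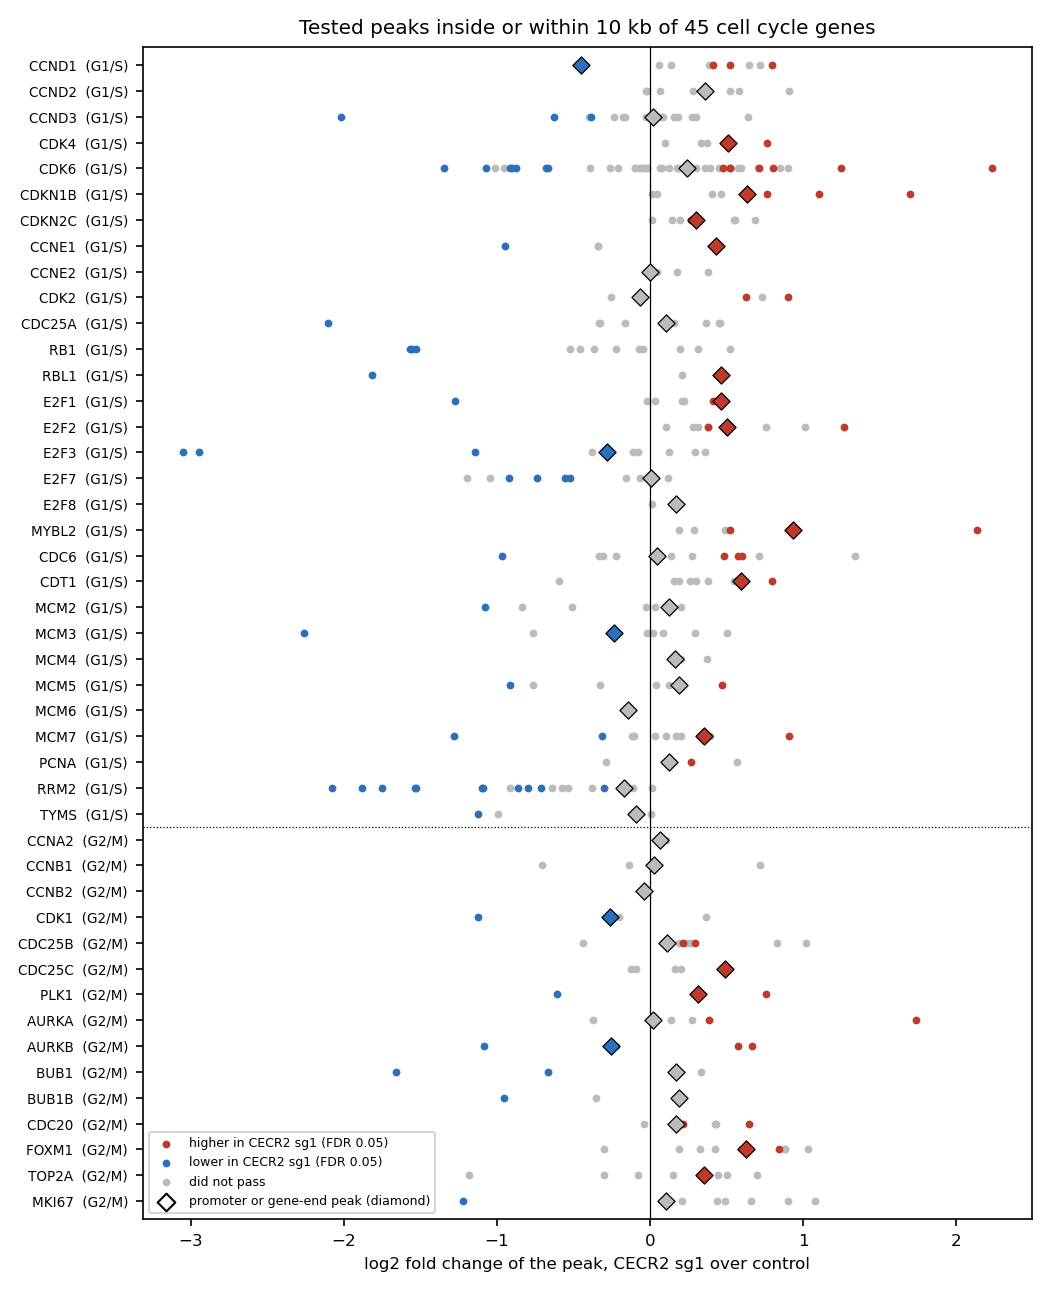
Each point is 1 tested peak of the gene named on the left, placed by its log2 fold change (sg1 over control), with G1/S genes above the dotted line and G2/M genes below it. Red peaks were higher, blue peaks lower and grey peaks did not pass; diamonds mark the promoter or gene-end peak. RRM2 has 11 blue points and no red one, while CDKN1B has 4 red points and no blue one.

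**Figure D3:**
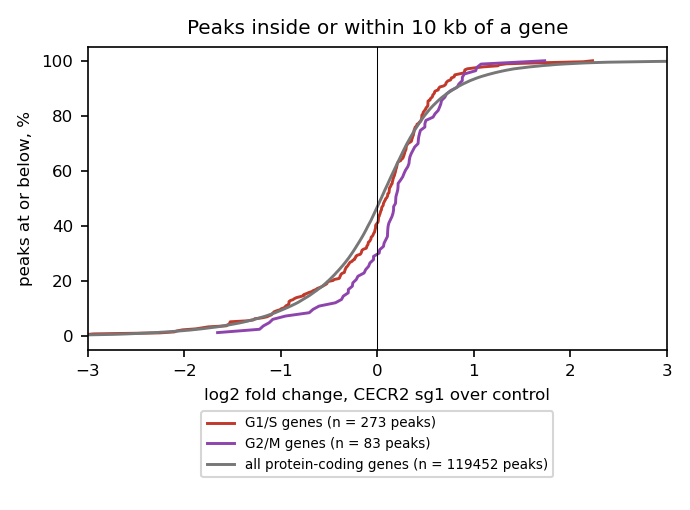
Curves give the percent of tested peaks at or below a log2 fold change (sg1 over control) for G1/S genes (273 peaks), G2/M genes (83 peaks) and all protein-coding genes (119452 peaks). The G2/M curve lies to the right of the others around 0, with a median of 0.19 against 0.10 for G1/S genes and 0.04 for all genes.

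Promoters and the rest of each locus had different counts. A promoter peak is the tallest peak within 1 kb of the listed start, or within 1 kb of either end for 9 members (CCND1, CCND2, CCNE2, CDK2, E2F8, MCM4, MCM5, AURKA and FOXM1). For CCND1 and CDK2 that peak lies at the 3′ end of the gene. Such a peak was found for 44 of the 45 members. Of these 44, 5 (11.4%) were lower and 14 (31.8%) higher, against 8.11% lower and 31.0% higher of the promoter peaks of all protein-coding genes. The medians were 0.14 for the members and 0.16 for all promoter peaks, so the higher share at promoters is that of the whole table. Among member peaks more than 1 kb from any gene end, 46 of 216 (21.3%) were lower and 25 (11.6%) higher, against 17.7% lower and 9.86% higher for peaks of that kind at all genes. Without RRM2, 35 of 199 of these member peaks (17.6%) were lower. At promoters the G1/S genes had 3 lower and 10 higher of 29, and the G2/M genes 2 lower and 4 higher of 15. The 3 lower G1/S ones include the 3′-end peak of CCND1. The peaks at the 5′ ends of CCND1 and CDK2, described below, were higher and are not in these counts. The 5 lower promoter peaks became 2 without sg1 replicate 1, 3 without sg1 replicate 2 and 2 under upper-quartile scaling. Of the 19 called promoter peaks, 11 passed in the same direction in all 12 other fits. The surroundings of a gene were taken within 1 Mb but beyond its own 10 kb window. Their median log2 fold change ranged from -0.06 at CCNE1 to 0.43 at MCM7 for the 14 genes with a higher promoter peak. For the 5 genes with a lower one it ranged from -0.21 at E2F3 to 0.19 at AURKB. Medians over the whole chromosome ran from 0.006 at PLK1 to 0.21 at MCM7 for the 14 genes. For the 5 genes they ran from -0.10 at E2F3 to 0.16 at AURKB. The part of the surroundings in these calls was not tested. A peak near another gene's end cannot be given to the member alone, and 16 of the 44 promoter peaks, 8 of the 19 called, lay within 1 kb of an end of another protein-coding gene.

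**Figure D4:**
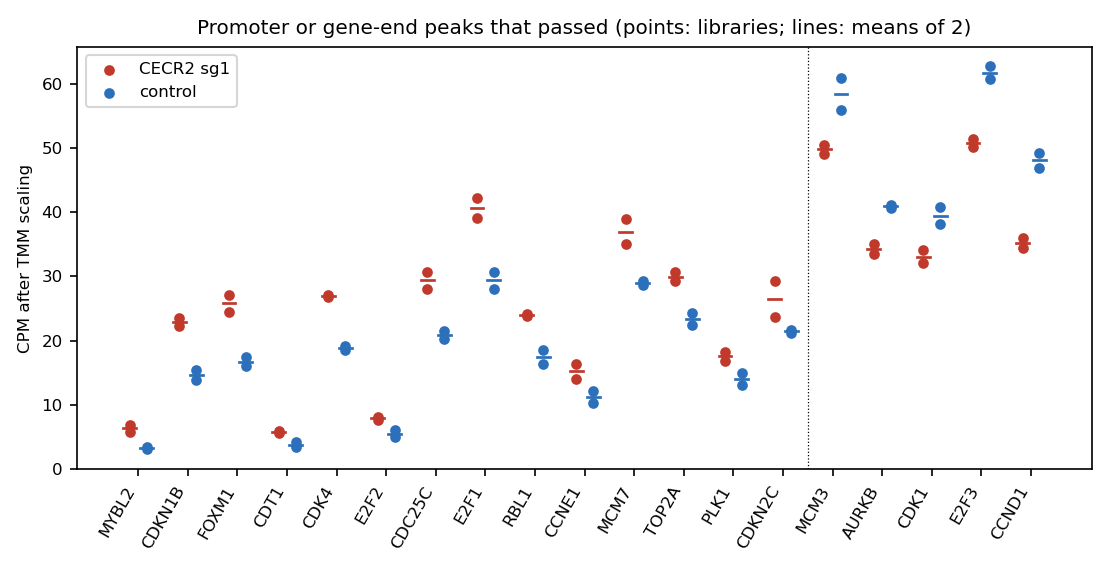
Points are the CPM of each library at the 19 promoter or gene-end peaks that passed, sg1 in red to the left of control in blue, and short lines are means of 2. The 14 peaks left of the dotted line were higher in sg1, and the 5 right of it (MCM3, AURKB, CDK1, E2F3 and CCND1) were lower. The CCND1 peak lies at the 3′ end of the gene.

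The D-type cyclins and their kinases start the passage through G1. Their 84 tested peaks had 11 lower (13.1%) and 13 higher (15.5%), with a median of 0.16. At all protein-coding genes 15.5% of peaks were lower and 12.2% higher. CCND1, which encodes cyclin D1, split between its ends. The large peak at the 3′ end of the gene (chr11:69654090-69656408), which also lies within 1 kb of LOC124902704, had 36.0 and 34.4 CPM in the sg1 libraries, against 46.9 and 49.2 CPM in the control libraries. Both sg1 libraries lay below both controls (log2 fold change -0.45, SE 0.07, edgeR adjusted p = 7.13e-06). The peak over the 5′ end (chr11:69640858-69641346) had 16.3 and 15.1 CPM in sg1 and 12.7 and 10.7 CPM in control (log2 fold change 0.41, edgeR adjusted p = 0.00585). Peaks upstream at 69636337 and inside the gene at 69644248 were also higher, with log2 fold changes of 0.52 and 0.80. These 3 higher peaks were picked with their values known, to complete the account of CCND1.

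CDK4, a partner kinase of the D cyclins, was higher at its promoter (chr12:57751798-57752792), with 26.7 and 27.1 CPM in sg1 and 18.5 and 19.2 CPM in control (log2 fold change 0.51, SE 0.09, edgeR adjusted p = 2.87e-05). The groups did not overlap. Within 1 Mb of CDK4 the median was 0.34, with 25.1% of 199 tested peaks higher. CDK6, the other such kinase, is a long gene with 43 tested peaks, of which 7 were lower and 8 higher. Within 1 Mb of CDK6, 12.4% of 97 tested peaks were lower and 20.6% higher. Its peak with the smallest p (chr7:92641711-92642538, inside the gene) had 21.7 and 22.9 CPM in sg1 and 41.5 and 40.1 CPM in control (log2 fold change -0.87, SE 0.08, edgeR adjusted p = 8.32e-11). The CDK6 promoter peak did not pass (log2 fold change 0.24), and DESeq2 called 4 of the CDK6 peaks lower and 1 higher. CCND3, a further D cyclin, had 3 lower and 0 higher of 18 tested peaks, all 3 inside the gene. That lower share is near the 15.5% at all protein-coding genes. The CCND3 promoter peak stood at a log2 fold change of 0.02. It is a small peak, with means of 6.63 CPM in sg1 and 6.56 CPM in control. The median over member promoter peaks was 26.6 CPM. Without adjustment, CCND3 had p under 0.05 at 3 lower peaks and 1 higher peak, and DESeq2 gave 1 lower and 0 higher.

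Among the inhibitors of the G1 kinases, CDKN1B and CDKN2C both had higher peaks. Of the 16 tested peaks of CDKN1B, which encodes p27, and CDKN2C, which encodes p18, 6 (37.5%) were higher and 0 lower, with a median of 0.43, against 12.2% higher, 15.5% lower and a median of 0.04 for peaks at all protein-coding genes. Without adjustment, p was under 0.05 for 9 higher and 0 lower peaks, and DESeq2 gave 4 higher and 0 lower. The CDKN1B promoter peak (chr12:12716722-12717715), shared with GPR19, had 23.5 and 22.2 CPM in sg1 and 15.5 and 13.9 CPM in control (log2 fold change 0.63, SE 0.10, edgeR adjusted p = 5.35e-06). A peak beyond the 3′ end at an end of APOLD1 (chr12:12724794-12726181) had 21.4 and 24.7 CPM in sg1 and 14.6 and 12.3 CPM in control (log2 fold change 0.76, SE 0.10). In both peaks each sg1 library lay above each control. A small neighbour (chr12:12724308-12724477) had 1.13 and 1.78 CPM in sg1 and 0.535 and 0.326 CPM in control (log2 fold change 1.70, SE 0.43, edgeR adjusted p = 0.00278), a call lost without sg1 replicate 2 (edgeR adjusted p = 0.0964). It and the peak at APOLD1 lie nearer to an end of another gene than to CDKN1B. Within 1 Mb of CDKN1B the median over 221 tested peaks was 0.24, with 20.4% higher, against a median of 0.55 over its own peaks.

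The CDKN2C promoter peak (chr1:50959538-50960845), shared with FAF1, had 23.8 and 29.2 CPM in sg1 and 21.7 and 21.2 CPM in control (log2 fold change 0.30, SE 0.09, edgeR adjusted p = 0.0148). The call rests on sg1 replicate 2, the higher of the sg1 libraries: without it the log2 fold change was 0.16 and the edgeR adjusted p 0.406. DESeq2 did not call it either (adjusted p = 0.0886). Within 1 Mb of CDKN2C the median was 0.34 over 114 tested peaks, above the gene's own median of 0.29. Among inhibitor genes that are not members, the promoter of CDKN1A, which encodes p21, did not pass (log2 fold change -0.04). Those of CDKN1C and CDKN2D were higher (log2 fold changes 0.52 and 0.32, edgeR adjusted p 0.000369 and 0.00125). No promoter peak was found for CDKN2A or CDKN2B.

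Cyclin E with CDK2 carries cells into S phase, and CDC25A removes the phosphates that hold CDK2 back. These genes had 2 lower (8%) and 3 higher (12%) of 25 tested peaks. The CCNE1 promoter (chr19:29811325-29812266) had 14.1 and 16.4 CPM in sg1 and 12.2 and 10.2 CPM in control (log2 fold change 0.43, SE 0.12, edgeR adjusted p = 0.00579), a call lost without sg1 replicate 2 (edgeR adjusted p = 0.146). A peak in the CCNE1 flank (chr19:29831019-29832011) went the other way, with 13.1 and 14.5 CPM in sg1 and 24.4 and 29.0 CPM in control (log2 fold change -0.95, SE 0.10, edgeR adjusted p = 3.25e-09). No library of one group fell within the range of the other at either peak.

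At CDK2 the tallest gene-end peak, which lies at the 3′ end and is shared with RAB5B (chr12:55973372-55974271), did not pass (log2 fold change -0.07), but smaller peaks at each end of the gene were higher. One near the 3′ end (chr12:55972017-55972409) had 10.4 and 11.2 CPM in sg1 and 6.22 and 5.22 CPM in control (log2 fold change 0.90, SE 0.15). The peak at the 5′ end (chr12:55966047-55967326), shared with PMEL, had 17.1 and 16.5 CPM in sg1 and 11.7 and 9.85 CPM in control (log2 fold change 0.63, SE 0.11). Within 1 Mb of CDK2 the median was 0.35, with 27.0% of 178 tested peaks higher. The CDC25A promoter did not pass (log2 fold change 0.11), and 1 small peak inside CDC25A was lower (log2 fold change -2.10, with a mean of 0.189 CPM in sg1 and 0.829 CPM in control).

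The RB family holds the E2F factors inactive. RB1 had 3 lower and 0 higher of 12 tested peaks (3 and 0 at an unadjusted p under 0.05, and 1 and 0 by DESeq2). All 3 were small and lay next to each other inside the gene, and the largest is nearer to an end of another gene than to an end of RB1. That peak (chr13:48448989-48449223) had 0.542 and 0.431 CPM in sg1 and 1.07 and 1.83 CPM in control (log2 fold change -1.53, SE 0.41, edgeR adjusted p = 0.00476). Its call was lost without control replicate 2 (edgeR adjusted p = 0.0827) and without sg1 replicate 2 (edgeR adjusted p = 0.0608). No peak lay within 1 kb of the start that the table lists for RB1, which is near the far end of the gene. The peak over the first bases of the gene (chr13:48303069-48304309), chosen after its values were seen, averaged 27.9 ± 0.634 CPM in sg1 and 28.7 ± 1.87 CPM in control (SD, n = 2 each) and did not pass (log2 fold change -0.04). RBL1, which encodes the relative p107, was higher at its promoter (chr20:37095433-37096450), with 23.8 and 24.1 CPM in sg1 and 16.4 and 18.6 CPM in control (log2 fold change 0.46, SE 0.09, edgeR adjusted p = 0.000261).

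Among the E2F genes and MYBL2, 9 of 44 tested peaks (20.5%) were lower and 8 (18.2%) higher, against 15.5% and 12.2% at all protein-coding genes. With DESeq2, 7 were lower and 4 higher. E2F1, with 1 lower and 2 higher, was the only gene of this group with calls both ways. E2F1 and E2F2 encode activating E2Fs, and MYBL2 the factor that hands over to the mitotic programme. Their promoters were higher. The E2F1 promoter (chr20:33685485-33686966), whose E2F matches are in the sequence printed above, had 39.0 and 42.2 CPM in sg1 and 30.7 and 28.1 CPM in control (log2 fold change 0.46, SE 0.08, edgeR adjusted p = 1.79e-05). MYBL2 (chr20:43666733-43667261) had 5.79 and 6.92 CPM in sg1 and 3.21 and 3.46 CPM in control, the largest fold among the called promoter peaks (log2 fold change 0.93, SE 0.19, edgeR adjusted p = 0.000356). In both the groups were apart. Within 1 Mb of E2F2 the median was 0.31, with 27.5% of 240 tested peaks higher. E2F2 (chr1:23531204-23531764) had 7.62 and 8.19 CPM in sg1 and 6.03 and 5.02 CPM in control (log2 fold change 0.50, SE 0.16, edgeR adjusted p = 0.0174). That call was lost by DESeq2 (adjusted p = 0.099) and without control replicate 2, sg1 replicate 1 or sg1 replicate 2 (edgeR adjusted p 0.104, 0.0596 and 0.146).

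E2F3, the remaining activator of the set, was lower. Its promoter (chr6:20401148-20401957) had 51.3 and 50.2 CPM in sg1 and 62.7 and 60.7 CPM in control (log2 fold change -0.28, SE 0.06, edgeR adjusted p = 0.00078), and it also lies within 1 kb of LOC124901482. A peak in the middle of the gene (chr6:20444708-20445158) was far lower in sg1, with 0.452 and 0.482 CPM in the sg1 libraries and 3.69 and 3.52 CPM in the control libraries (log2 fold change -2.94, SE 0.31, edgeR adjusted p = 5.67e-09). Past the 3′ end (chr6:20495156-20495852) a peak had 6.76 and 6.49 CPM in sg1 and 14.1 and 15.3 CPM in control (log2 fold change -1.14, SE 0.13). In all 3 peaks each sg1 library lay below each control. The peak in the middle of the gene lies nearer to an end of another gene than to an end of E2F3. E2F3 had 4 lower and 0 higher of 10 tested peaks (5 and 0 at an unadjusted p under 0.05, and 3 and 0 by DESeq2). The 126 tested peaks within 1 Mb of it had a median of -0.21, with 25.4% lower.

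E2F7, an atypical E2F that represses, had 4 lower and 0 higher of 10 tested peaks (6 and 0 at an unadjusted p under 0.05, and 3 and 0 by DESeq2). All 4 lay inside the gene. The peak with the smallest p (chr12:77032275-77032980) had 11.7 and 10.6 CPM in sg1 and 21.8 and 20.5 CPM in control (log2 fold change -0.92, SE 0.10, edgeR adjusted p = 1.51e-08). The E2F7 promoter did not pass (log2 fold change 0.01), and within 1 Mb the median over 158 peaks was -0.05. E2F8, its close relative, had no called peak.

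**Figure D5:**
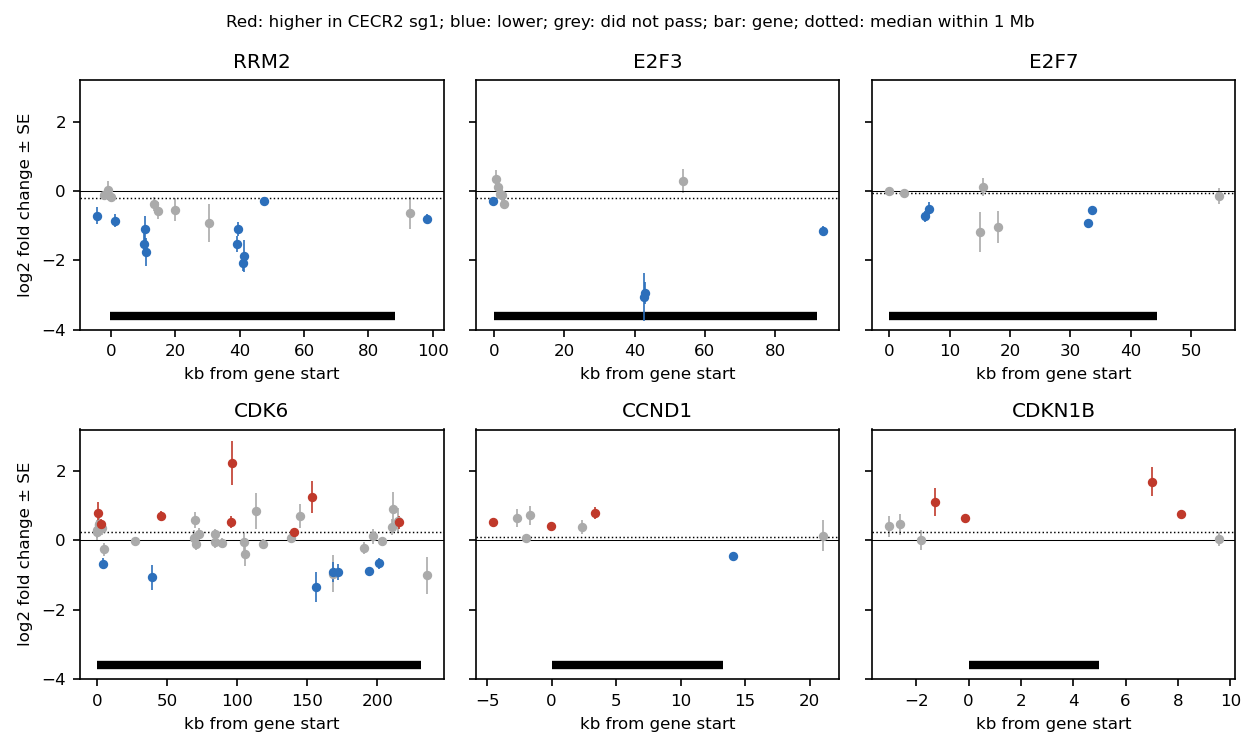
For 6 genes, each point is a tested peak at its distance in kb from the start of the gene, with its log2 fold change (sg1 over control) and SE; the black bar is the gene and the dotted line the median over tested peaks within 1 Mb. RRM2, E2F3 and E2F7 have blue (lower) and no red (higher) peaks, CDKN1B red and no blue ones, and CDK6 and CCND1 both.

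Origin licensing loads the MCM helicase with the help of CDC6 and CDT1. This group had 7 lower (11.9%) and 8 higher (13.6%) of 59 tested peaks, with a median of 0.12. The MCM subunits form 1 ring, but their promoters did not move together. MCM7 (chr7:100101264-100102246, shared with AP4M1) had 35.1 and 38.9 CPM in sg1 and 29.2 and 28.6 CPM in control (log2 fold change 0.35, SE 0.08, edgeR adjusted p = 0.000712). MCM3 (chr6:52284400-52285200) had 49.0 and 50.5 CPM in sg1 and 60.9 and 56.0 CPM in control (log2 fold change -0.23, SE 0.06, edgeR adjusted p = 0.00631). Both printed promoters carry 2 E2F matches and 3 CCAAT matches, and the libraries went opposite ways at them. The surroundings also differed: within 1 Mb the median was 0.43 at MCM7, with 34.1% of peaks higher, and -0.09 at MCM3, so the MCM7 promoter lay below the median around it. The MCM3 call was lost under upper-quartile scaling (edgeR adjusted p = 0.0707) and without control replicate 1, sg1 replicate 1 or sg1 replicate 2 (edgeR adjusted p 0.062, 0.131 and 0.0589).

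The promoters of the other MCM genes did not pass, with log2 fold changes of 0.12 at MCM2, 0.16 at MCM4, 0.19 at MCM5 and -0.14 at MCM6. The MCM2 promoter (chr3:127598013-127598767) had 17.8 and 17.7 CPM in sg1 and 17.3 and 15.3 CPM in control (edgeR adjusted p = 0.384). In the MCM2 flank, in contrast, a peak (chr3:127591697-127592342) had 12.6 and 13.1 CPM in sg1 and 29.5 and 24.4 CPM in control (log2 fold change -1.08, SE 0.10, edgeR adjusted p = 1.74e-10). Peaks inside MCM5 (chr22:35430876-35431280) and in the MCM7 flank (chr7:100090583-100090873) were lower too. The first had 6.44 and 6.95 CPM in sg1 and 12.8 and 12.4 CPM in control (log2 fold change -0.92, SE 0.13), and the other 1.72 and 2.21 CPM in sg1 and 3.79 and 5.87 CPM in control (log2 fold change -1.28, SE 0.24). The MCM2 and MCM7 flank peaks lie nearer to an end of another gene than to the member. CDT1 was higher at its promoter peak (chr16:88802727-88803242), with 5.70 and 5.93 CPM in sg1 and 4.18 and 3.46 CPM in control (log2 fold change 0.59, SE 0.19, edgeR adjusted p = 0.0167). This peak lies upstream of the listed start and does not overlap the 300-base promoter searched for motifs. DESeq2 did not call CDT1 (adjusted p = 0.099), nor did edgeR without control replicate 2, sg1 replicate 1 or sg1 replicate 2 (adjusted p 0.0912, 0.0763 and 0.116). CDC6 had 1 lower and 3 higher of 13 tested peaks and a promoter that did not pass (log2 fold change 0.05).

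Genes of DNA synthesis had the most negative median of the role groups, -0.60 over 28 tested peaks. Of these, 12 (42.9%) were lower and 1 (3.57%) higher, against 15.5% and 12.2% at all protein-coding genes. RRM2 held 11 of the 12. RRM2 encodes the small subunit of ribonucleotide reductase, which makes deoxynucleotides for S phase. Of its 19 tested peaks 11 were lower and 0 higher (13 and 0 at an unadjusted p under 0.05, and 8 and 0 by DESeq2), 9 of them inside the long extent that the table lists for the gene (chr2:10122568-10211010). The peak with the smallest p (chr2:10163665-10164061) had 1.29 and 1.27 CPM in sg1 and 5.74 and 5.02 CPM in control (log2 fold change -2.08, SE 0.24, edgeR adjusted p = 2.25e-08). A neighbour (chr2:10161658-10161970) had 1.42 and 2.08 CPM in sg1 and 5.25 and 4.83 CPM in control (log2 fold change -1.53, SE 0.23). Beyond the far end (chr2:10220491-10221366) a peak had 8.23 and 8.80 CPM in sg1 and 14.5 and 15.1 CPM in control (log2 fold change -0.80, SE 0.12). Each sg1 library lay below each control at all 3. The midpoints of these peaks lie 39075, 41124 and 98190 bases from the listed start. Exons were not used, so which part of the listed extent holds the coding gene was not examined. The RRM2 promoter itself did not pass, with means of 27.7 CPM in sg1 and 31.2 CPM in control (log2 fold change -0.17, edgeR adjusted p = 0.118). Within 1 Mb of RRM2 the 283 tested peaks had a median of -0.20, and 29.0% were lower and 5.65% higher.

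PCNA, the sliding clamp of DNA polymerases, did not pass at its promoter (chr20:5126437-5127580), with 41.4 and 43.3 CPM in sg1 and 41.4 and 35.7 CPM in control (log2 fold change 0.13, SE 0.07, edgeR adjusted p = 0.205). The groups touched there, since sg1 replicate 1 and control replicate 1 stood at the same level. It passed as higher without control replicate 1 (edgeR adjusted p = 0.0185) and under upper-quartile scaling (edgeR adjusted p = 0.0295). TYMS, the thymidylate synthase gene, did not pass at its promoter (log2 fold change -0.09).

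Cyclins A and B with CDK1 drive G2 and mitosis, and CDC25B and CDC25C activate CDK1. Of their 26 tested peaks, 2 (7.69%) were lower and 3 (11.5%) higher, and CCNA2, CCNB1 and CCNB2 had no called peak. The CDK1 promoter (chr10:60778148-60779183) had 32.0 and 34.1 CPM in sg1 and 40.7 and 38.2 CPM in control (log2 fold change -0.26, SE 0.07, edgeR adjusted p = 0.00747). This call was lost under upper-quartile scaling and without control replicate 1 or sg1 replicate 1 (edgeR adjusted p 0.0631, 0.0509 and 0.191). A CDK1 flank peak (chr10:60797974-60798598) had 1.83 and 2.21 CPM in sg1 and 5.01 and 3.65 CPM in control (log2 fold change -1.12, SE 0.23, edgeR adjusted p = 0.000408). Its partner gene CCNB1 (chr5:69166642-69167559) had 31.2 and 31.7 CPM in sg1, between the 28.4 and 33.7 CPM of the control libraries (log2 fold change 0.02, SE 0.08, edgeR adjusted p = 0.854). The sign at CCNB1 turned without control replicate 1 (-0.11).

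CDC25C (chr5:138337429-138338751, shared with FAM53C) was higher, with 28.0 and 30.7 CPM in sg1 and 20.3 and 21.5 CPM in control (log2 fold change 0.49, SE 0.09, edgeR adjusted p = 3.97e-05). At CDC25B a flank peak (chr20:3807304-3808430) had 33.6 and 34.7 CPM in sg1 and 26.1 and 29.9 CPM in control (log2 fold change 0.29, SE 0.08, edgeR adjusted p = 0.00542). That call was lost without control replicate 1 (edgeR adjusted p = 0.11) and without sg1 replicate 2 (edgeR adjusted p = 0.0574).

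Of the 27 tested peaks of mitotic kinases and spindle checkpoint genes, 6 (22.2%) were lower and 8 (29.6%) higher. The shares at all protein-coding genes were 15.5% and 12.2%, and the difference was not tested. With DESeq2, 5 of the peaks of this group were lower and 3 higher. PLK1, a kinase of mitotic entry, was higher at its promoter (chr16:23678327-23679769, shared with DCTN5), with 18.3 and 16.8 CPM in sg1 and 15.0 and 13.0 CPM in control (log2 fold change 0.32, SE 0.10, edgeR adjusted p = 0.0224). It missed the threshold by DESeq2 (adjusted p = 0.123), with the sg1 libraries thinned to control depth (edgeR adjusted p = 0.0513), and without control replicate 2 or sg1 replicate 1 (edgeR adjusted p 0.143 and 0.222). AURKB, the kinase of the chromosomal passenger complex, was lower (chr17:8209817-8210824), with 35.1 and 33.6 CPM in sg1 and 41.2 and 40.6 CPM in control (log2 fold change -0.25, SE 0.07, edgeR adjusted p = 0.00694). Its call was lost under upper-quartile scaling and without sg1 replicate 1 or sg1 replicate 2 (edgeR adjusted p 0.0639, 0.053 and 0.167).

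AURKA, the spindle pole kinase, did not pass at its 5′ peak (log2 fold change 0.02). A peak in its flank (chr20:56358658-56359731) was higher, with 31.3 and 33.7 CPM in sg1 and 24.3 and 25.4 CPM in control (log2 fold change 0.39, SE 0.08). That peak lies at an end of FAM210B and nearer to another gene than to AURKA. CDC20, the activator of the anaphase promoting complex, had a higher flank peak (chr1:43348483-43349995) that lies nearer to another gene, with 31.6 and 30.6 CPM in sg1 and 20.3 and 19.4 CPM in control (log2 fold change 0.65, SE 0.08, edgeR adjusted p = 3.46e-07). The CDC20 promoter did not pass (log2 fold change 0.17), and 35.7% of tested peaks within 1 Mb of CDC20 were higher. BUB1B, a checkpoint kinase homologue, had a lower peak inside the gene but nearer to an end of another gene (chr15:40190396-40191008), with 2.58 and 2.82 CPM in sg1 and 5.59 and 4.76 CPM in control (log2 fold change -0.95, SE 0.21). Promoters of BUB1 and BUB1B did not pass (log2 fold changes 0.17 and 0.19).

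FOXM1, TOP2A and MKI67 mark proliferating cells. Of their 30 tested peaks, 1 (3.33%) was lower and 3 (10%) were higher, with a median of 0.39. The 5′ peak of FOXM1 (chr12:2876411-2878216), a factor of the mitotic programme, had 24.4 and 27.2 CPM in sg1 and 16.0 and 17.4 CPM in control (log2 fold change 0.63, SE 0.09, edgeR adjusted p = 3.34e-06). It is also the peak of RHNO1. TOP2A, which encodes topoisomerase II alpha and has 2 CHR matches in the promoter printed above, had 29.2 and 30.6 CPM in sg1 and 24.4 and 22.4 CPM in control at chr17:40417312-40418310 (log2 fold change 0.35, SE 0.08, edgeR adjusted p = 0.00148). At both the groups did not overlap.

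MKI67, which encodes the proliferation antigen Ki-67, did not pass at its promoter (chr10:128125826-128127112), with 27.1 and 28.1 CPM in sg1 and 24.5 and 26.8 CPM in control (log2 fold change 0.11, SE 0.08, edgeR adjusted p = 0.35). A peak at an end of PTPRE in the MKI67 flank (chr10:128086109-128086871) was lower, with 2.06 and 2.18 CPM in sg1 and 4.81 and 5.09 CPM in control (log2 fold change -1.22, SE 0.22, edgeR adjusted p = 5.48e-05).

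Higher calls fell both among promoters with a motif match and among those without one. Matches were sought in the 300-base promoter and not in the peak. For the 13 G1/S genes with an E2F match there, 2 promoter peaks were lower and 5 higher, against 0 lower and 5 higher of 9 without one. The higher peak of CDT1, which is among the 5, does not overlap the promoter that holds its match. Of 8 G2/M promoter peaks with a CHR match, 1 was lower and 2 were higher, against 1 lower and 1 higher of 5 without one. CDK1, PLK1 and TOP2A all carry the match, and CDK1 was the lower one. For CCAAT, 2 of 11 G1/S promoter peaks with a match were lower and 3 higher, against 0 and 7 of 11 without one. Of 10 G2/M promoter peaks with CCAAT, 2 were lower and 2 higher, against 0 and 1 of 3 without it. The difference between these classes was not tested, and the counts are small.

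The wider cell cycle machinery was read from 90 further genes, chosen by function. Of their 572 tested peaks 63 (11.0%) were lower and 77 (13.5%) higher; the median log2 fold change was 0.07. With DESeq2 the balance turned, with 39 lower and 35 higher. Of 87 promoter peaks, 7 (8.05%) were lower and 25 (28.7%) higher, close to the 8.11% and 31.0% of all promoter peaks. On the G1/S side 1 of 42 promoter peaks was lower and 12 were higher, and on the G2/M side 6 of 45 were lower and 13 higher. The 1 lower G1/S-side promoter was that of MCM10, a replication initiation factor.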

How the data were processed

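Chromatin accessibility was measured in 4 ATAC-seq libraries, grouped by their titles. The deposited values are raw counts per peak, made with featureCounts 1.6.0 from alignments of cut sites, per the file headers; 1 fragment can therefore be counted at both ends. The submitters' processing notes name MACS2 2.2.4, Trimmomatic 0.39, deepTools 3.1.3, DESeq2 1.32, Bowtie2, CASAVA and SAMtools, without their roles. No genome build was named in the sources; peaks were placed with RefSeq genes of GRCh38.p14, and exons were not used. The deposited peak list holds the same 190348 positions as the table.

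The 109 peaks that start in the first 250 kb of chromosome 1 were left out of library sizes and tests. The 15561701 to 43519018 counts per library that remained were tested with edgeR 4.0.16 (R 4.3.3): filterByExpr, TMM scaling, the quasi-likelihood F test on group, and Benjamini-Hochberg adjustment over all 184717 tested peaks, with a threshold of 0.05. The SE is the absolute log2 fold change over the root of F. The biological coefficient of variation was 8.13%. Alternatives were DESeq2 1.42.0, other scalings, filters, thinning, windows, a replicate block and each library left out. Python 3.11.15, pandas 2.3.3, numpy 2.4.6 and matplotlib 3.10.9 were used.

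The members and lists were chosen with earlier results of these data known. Named by rule were called promoter peaks, up to 3 called peaks with the smallest p per role group with at least 1 CPM in the higher group, and CCND1, CDKN1B, RB1, E2F1, MCM2, PCNA, CCNB1, CDK1, MKI67 and TOP2A; any other peak named was picked with its values known.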

Additional observations from a re-analysis of the deposited data

How the results depend on the processing

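Counts are given as lower and higher peaks in sg1. DESeq2 called 17866 and 8475 of all peaks, and for the members 27 higher, of which 20 at G1/S and 7 at G2/M genes. Upper-quartile scaling gave 61 higher G1/S peaks and 2 lower promoter peaks. A 50 kb window gave 108 and 135 of 782 tested member peaks. By class these were 75 and 94 of 555 at G1/S genes and 33 and 43 of 230 at G2/M genes. A 2 kb window gave 5 and 8 of 57 at G2/M genes. Leaving out peaks nearer to another gene gave 5 and 9 of 61 at G2/M genes. G1/S genes known to peak in expression at G1/S had 27 and 19 of 145. With 1 library left out, all peaks ranged from 18888 to 29467 lower and 11147 to 20243 higher. Member peaks ranged from 34 to 53 lower and 31 to 51 higher, G1/S peaks from 27 to 44 and 24 to 39, G2/M peaks from 6 to 9 and 7 to 12, and promoter peaks from 2 to 5 and 10 to 17. The lone library of a group was then assumed to vary like the other group.

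A replicate block gave 51 and 55 member peaks and 30358 and 21218 over all peaks. Same-numbered libraries did not deviate together (correlation 0.000132). With 1 pair of libraries per number, this does not show whether they were prepared together, which the labels do not state. Without RRM2, an alternative chosen after seeing the data, members had 43 lower and 54 higher of 337. CCNB1 reversed to -0.0068 with a minimum of 30 counts and ranged from -0.11 without control replicate 1 to 0.14 without control replicate 2. The causes were not tested. Of the 45 peaks named by rule, DESeq2 lost the call of 4, upper-quartile scaling of 3 and thinning of 1; library size alone, no count filter and keeping the start of chromosome 1 changed none.

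With 2 libraries a group and the shallower controls, small peaks were tested at few counts. One guide and 1 line were used, and a promoter shared by neighbouring genes gives both the same value.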
